A study of Mus musculus with 2 samples.

Results

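The arginine metabolism genes described here are 6 genes taken by symbol from the 32285 genes of the deposited matrices: Arg1 and Arg2, the cytosolic and mitochondrial arginases, Nos2, the inducible nitric oxide synthase, Slc7a2, a cationic amino acid transporter that takes up arginine, Ass1, argininosuccinate synthase, and Odc1, ornithine decarboxylase. All 6 were found by symbol. They were followed across marker-defined populations of nuclei in 2 single-nucleus RNA-seq libraries from mouse bone injury, labelled periosteum, in which activated periosteum and hematoma or callus were collected together from tibias of C57BL6 mice. The first library was made at day 1 post-fracture, after an open non-stabilized tibial fracture, and the second at day 5 after musculoskeletal traumatic injury (MTI), a tibial fracture with mechanical compression of the surrounding muscles. Mice were 10 to 14 weeks old, males and females were mixed, and each library pooled 3 or 4 mice. Nuclei were sorted on a nucleic acid dye, so no cell type was selected. There was 1 library per condition, and day and injury differed together, so the libraries were not compared with each other and no test between conditions was possible.

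Arginine is a shared substrate. Arginases split it into urea and ornithine, and ornithine feeds polyamine synthesis through ornithine decarboxylase and proline synthesis through ornithine aminotransferase, whereas nitric oxide synthases turn arginine into nitric oxide and citrulline. Argininosuccinate synthase and argininosuccinate lyase rebuild arginine from citrulline. In macrophages, Arg1 is a common marker of cells exposed to interleukin 4 or of repair-stage cells, and Nos2 of cells exposed to interferon and bacterial products.

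In mm10 coordinates, Arg1 lies on the minus strand at chr10:24915221-24927484 and Arg2 on the plus strand at chr12:79130777-79156301. Nos2 lies at chr11:78920787-78960254, Slc7a2 at chr8:40862396-40922308, Ass1 at chr2:31470207-31520672 and Odc1 at chr12:17544794-17551505, all on the plus strand. No other counted gene overlapped a member, except that Arg2 overlaps the antisense gene Gm48780 and the protein-coding gene Vti1b, both on the opposite strand.

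The matrices hold counts of unique molecular identifiers (UMIs), each of which stands for 1 captured RNA molecule. The day 1 library held 48987 barcodes, of which 43464 had under 200 genes, and 2405 nuclei with a median of 409 UMIs passed the study's limits on genes and on mitochondrial and ribosomal UMIs. The MTI library held 1446 barcodes and 1127 nuclei with a median of 2364 UMIs passed. The study also removed myogenic nuclei, which were kept here, and it reported fewer nuclei for both libraries, by far at day 1. At day 1 myogenic-like nuclei held 35.6% of the kept UMIs and unnamed nuclei 47.2%. Whether the removal of myogenic nuclei accounts for the difference was not tested. The libraries shared 33 barcode sequences. Clusters of nuclei were named "-like" from marker lists that contain none of the 6 genes, and the 6 genes were left out of the variable genes used for clustering. A level below is the UMIs of a gene per 1000000 UMIs of a population (CPM), with an exact 95% interval that covers counting error only. Nuclei are not replicates, UMIs of these genes gathered in few nuclei, and the intervals are therefore narrower than the variation between mice would make them.

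At day 5 post-MTI, Arg1 was a gene of the monocyte-like and macrophage-like nuclei. The 475 immune-like nuclei held 1359 of the 1503 Arg1 UMIs, and their Arg1 level was 15.8 times that of all other kept nuclei (95% interval 13.3 to 18.9). This ratio ranged from 3.03, with each nucleus assigned by its own marker level, to 27.9, with a mitochondrial limit of 0.5%. The level was highest in the 75 monocyte-like nuclei, at 2591 CPM (2397 to 2795, 664 UMIs). The 265 macrophage-like nuclei followed at 579.5 CPM (537 to 625, 686 UMIs). Arg1 was thus 4.47 times higher per UMI in monocyte-like than in macrophage-like nuclei (4.01 to 4.98), and these populations together held nearly all of the immune signal. The monocyte-like cluster had 6 of 8 monocyte markers raised at least 1.5-fold, among them Ccr2, the receptor that guides monocytes to injured tissue, but also 4 of 12 macrophage markers, and Arg1 itself stood among its 10 leading genes. When each nucleus was instead assigned by its own marker level, without clusters, the ratio was 1.29 (1.09 to 1.51), and the cause of this drop was not tested.

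**Figure D1:**
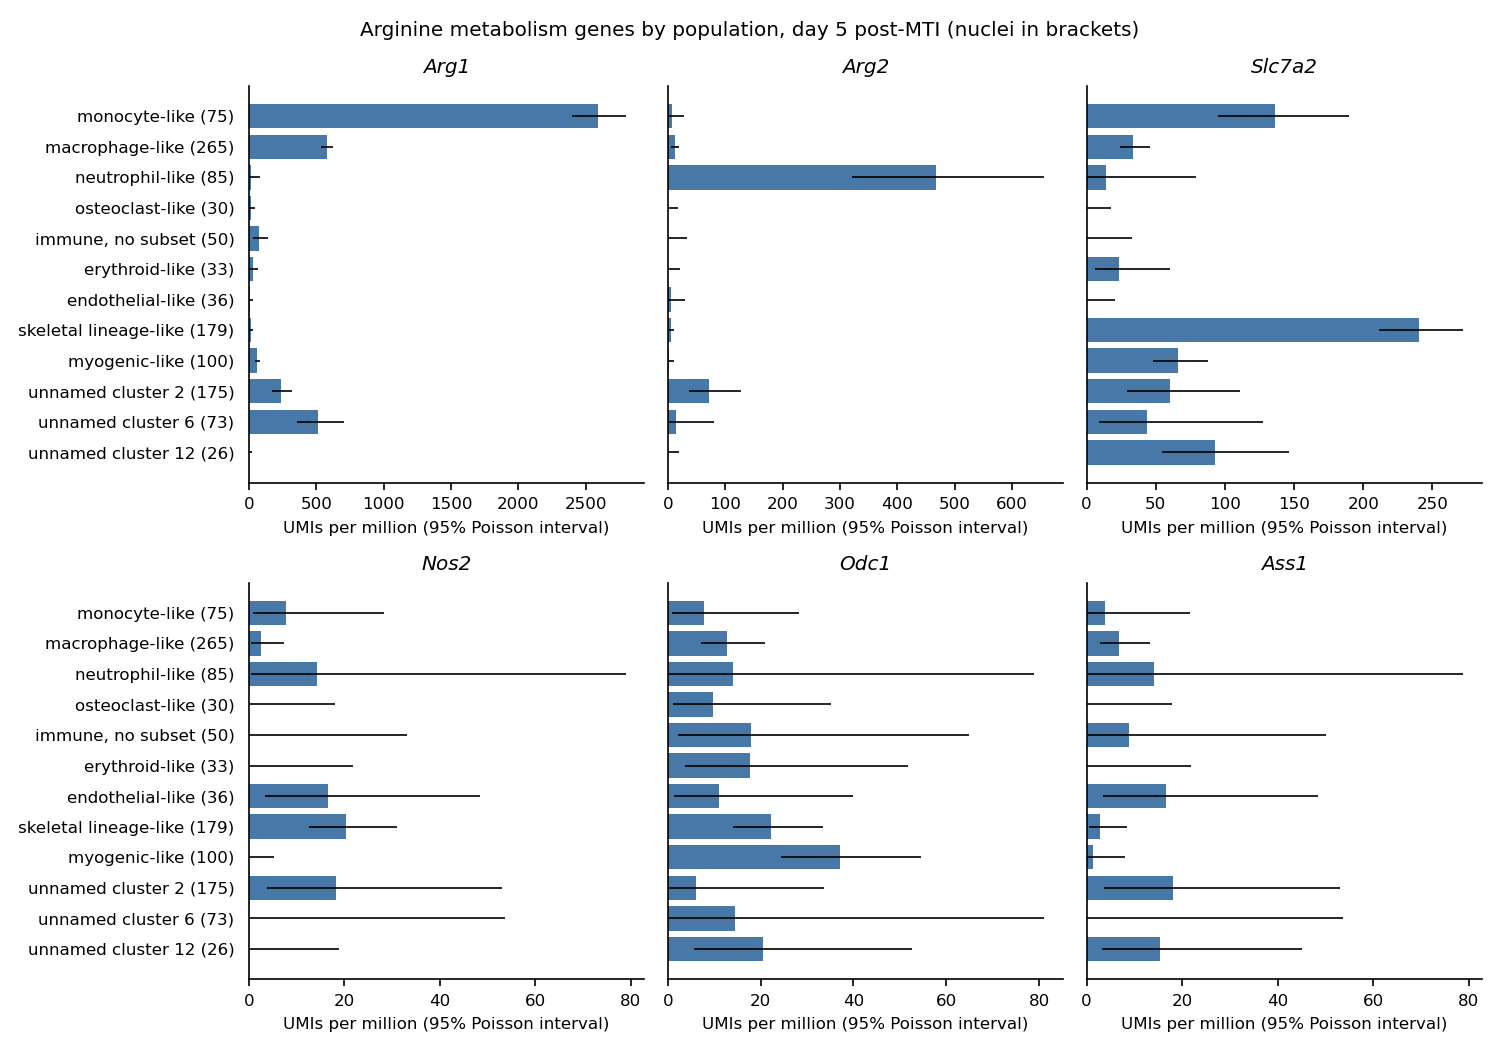
Level of each of the 6 genes in 12 populations at day 5 post-MTI, as UMIs per 1000000 UMIs of the population (horizontal axis, a separate scale for each gene) with exact 95% Poisson intervals as black lines; numbers in brackets are nuclei. Arg1 reached 2591 CPM in monocyte-like and 579.5 in macrophage-like nuclei, Arg2 467 in neutrophil-like nuclei and Slc7a2 240 in skeletal lineage-like nuclei.

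Against all other kept nuclei, the monocyte-like ones included, the macrophage-like level of Arg1 was 2.24 times higher (2.02 to 2.48). Of the 12746 genes with at least 20 UMIs, 10.5% were at least 2-fold higher in macrophage-like nuclei and 29.5% at least 2-fold lower, so a difference of this size was not rare. With nothing regressed out before clustering it was 1.04 (0.924 to 1.18), so this ratio did not survive every way of drawing the population. Against single non-immune populations the macrophage-like level was farther above. It was 31.5 times the skeletal lineage-like level (20.0 to 52.6) and 9.65 times the myogenic-like level (7.06 to 13.5).

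Below the 2 leading populations, Arg1 was found in a pair of low-depth clusters that could not be named. The 73 nuclei led by the heat shock gene Hspa1a and by Jun reached 509 CPM (355 to 709), and their interval overlapped that of the macrophage-like nuclei. Their macrophage-list level was 2999 CPM, against 5477 in macrophage-like and 259 in skeletal lineage-like nuclei. The 175 nuclei led by Elf5 and Tinag stood at 236 CPM (168 to 323), with a median of 685 UMIs per nucleus. Of their 39 Arg1 UMIs, 20 and 13 were in 2 nuclei, and the level was 117 CPM without the first of them. Every other population lay below 75 CPM: 71.9 in the immune nuclei with no subset name, 60.1 in myogenic-like, 29.5 in erythroid-like, 18.4 in skeletal lineage-like, 14.6 in osteoclast-like, 14.2 in neutrophil-like and 5.52 in endothelial-like nuclei. The intervals of the last 5 overlapped, so their order could not be read. The cluster led by Chodl, Dcx and Pax7, the last a satellite cell factor, had 0 Arg1 UMIs, which allows up to 15.4 CPM.

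The myogenic-like value rested on a pair of nuclei. They held 20 and 16 of its 42 Arg1 UMIs, and they also held 46 UMIs of the macrophage list, whose median over myogenic-like nuclei was 1. Over all kept nuclei, 82 had at least 5 Arg1 UMIs, and 82 of 82 had macrophage-list UMIs, with a median of 18. Among the 82, 37 were macrophage-like, named from this same list, and 37 were monocyte-like. The count therefore says little about the other populations. Of the other 1045 kept nuclei, 610 (58.4%) had macrophage-list UMIs, with a median of 1. The part of mixed nuclei in the low levels was not tested.

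Within the macrophage-like nuclei Arg1 was carried by a minority. Of 265 nuclei, 187 had no Arg1 UMI, 25 had 1, 16 had 2 to 4, 9 had 5 to 9 and 28 had 10 or more, with a maximum of 53. The 27 nuclei with most Arg1 UMIs, the top 10% of the population, held 542 of the 686 UMIs, or 79.0%, although they held 13.5% of all UMIs. For Mrc1, the mannose receptor, the corresponding 27 nuclei held 46.2% of the UMIs. The 2 shares are not strictly alike, because Mrc1 had 1491 UMIs and is one of the markers that named these nuclei. In the monocyte-like nuclei the signal was broader: the median nucleus had 4 Arg1 UMIs, the highest 63, 22 of 75 had none, and the top 8 nuclei held 42.5%.

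**Figure D2:**
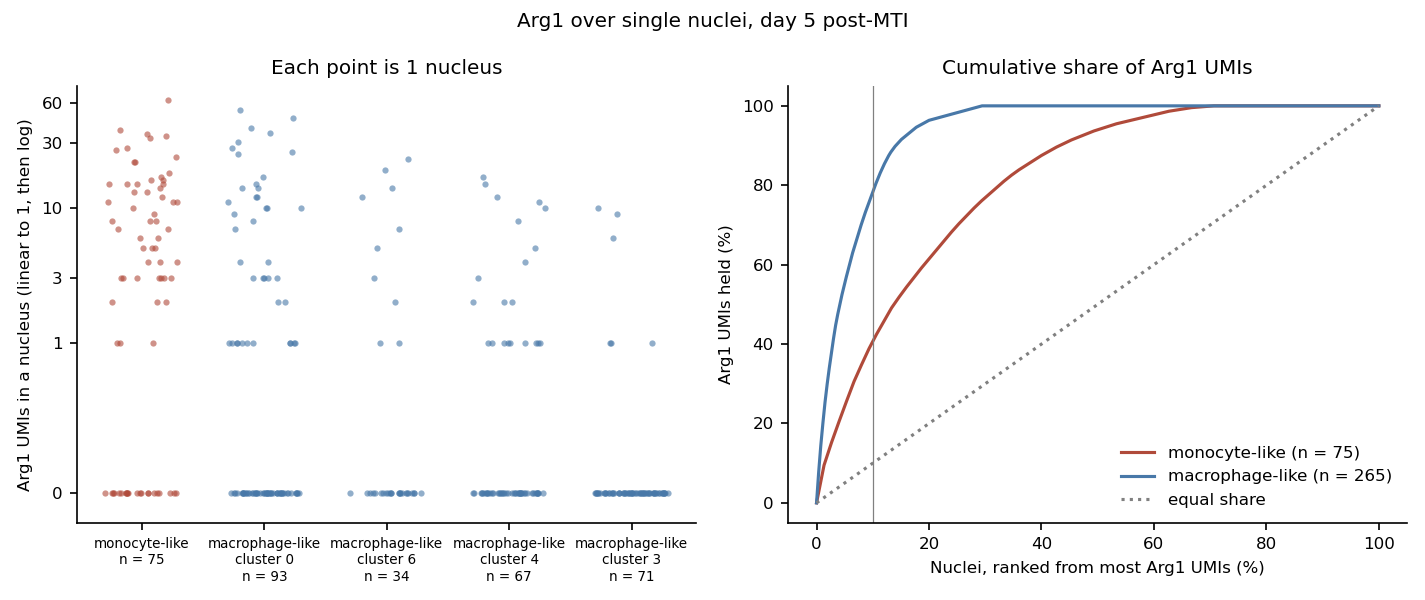
Left, Arg1 UMIs in each nucleus (1 point per nucleus, axis linear to 1 and logarithmic above) for monocyte-like nuclei and the 4 macrophage-like clusters at day 5 post-MTI; right, percent of Arg1 UMIs held (vertical) by nuclei ranked from most Arg1 UMIs (horizontal, percent), with the dotted line for an equal share. The vertical line marks the top 10% of nuclei, which held 79.0% of the macrophage-like UMIs.

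The shares were also taken at equal depth. Thinned to 500 UMIs, 35 of 75 monocyte-like nuclei (46.7%, exact 35.1 to 58.6) and 34 of 265 macrophage-like nuclei (12.8%, 9.05 to 17.5) kept an Arg1 UMI, and no nucleus was too shallow to be thinned. Unthinned, the shares were 70.7% at a median of 2657 UMIs and 29.4% at a median of 4043 UMIs. In skeletal lineage-like nuclei the thinned share was 1.68% (0.347 to 4.82) and the unthinned one 4.47% at a median of 3737 UMIs. Of their 19 Arg1 UMIs, 8 were in 1 nucleus, which also held 16 macrophage-list UMIs. In neutrophil-like nuclei 0 of 85 kept an Arg1 UMI after thinning, which allows a share of up to 3.53%. The part of free RNA in these shares was not tested.

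The 4 macrophage-like clusters differed in Arg1. The 93 nuclei led by Hmox1, heme oxygenase, with Ptgr1, Tnf and Prdx1 had the highest level, at 1181 CPM (1076 to 1292). The 34 nuclei led by the matrix metalloproteinases Mmp12 and Mmp13 with Gpnmb had 444 CPM (356 to 548). The 67 nuclei led by the resident-type markers Ccl8, Cd163, Siglec1 and Mrc1 had 361 CPM (294 to 439). The 71 nuclei led by Dnase1l3, Gpr162 and Cd4 had 89.8 CPM (59.6 to 130). By counting error alone, the middle clusters could not be told apart (ratio 0.81, 0.60 to 1.10). By the same measure, the Hmox1-led cluster exceeded the Mmp12-led one 2.66-fold (2.11 to 3.38) and the Dnase1l3-led one 13.2-fold (8.98 to 20.0). The monocyte-like level was still 2.19 times that of the Hmox1-led cluster (1.95 to 2.47). The share of nuclei with an Arg1 UMI after thinning was 24.7% in the Hmox1-led and 4.23% in the Dnase1l3-led cluster. Unthinned, 41 of 93 Hmox1-led and 10 of 34 Mmp12-led nuclei had Arg1. Of the 87 Arg1 UMIs of the Mmp12-led cluster, 68 were in 4 nuclei. The ratio intervals do not cover this gathering of UMIs in few nuclei.

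Macrophage-like nuclei with at least 3 Arg1 UMIs (47 nuclei, median 4957 UMIs) were then set beside those with none (187 nuclei, median 4011 UMIs), leaving the Arg1 UMIs out of the totals. Of 5649 genes with at least 30 UMIs, 3.84% were at least 2-fold higher in the nuclei with Arg1. The largest ratios were those of Egln3, a prolyl hydroxylase that acts on hypoxia-inducible factors, at 16.3 (6.69 to 47.7), and of Tenm4, at 13.4 (6.08 to 33.5). Mmp12, macrophage elastase, followed at 9.40 (7.03 to 12.7). Vegfa, the vascular growth factor, was 7.53 times higher (4.25 to 13.9), and Nt5e, the ecto-enzyme that makes adenosine, 7.35 times higher (3.23 to 18.2). The rest of the leading 10 were Plekha5 at 9.0, Gask1b at 8.05, Prelid2 at 6.30, Flrt2 at 6.25 and Bst1 at 5.95. Several rest on few UMIs, such as 31 against 6 for Egln3, 34 against 8 for Tenm4 and 17 against 9 for Bst1. These 10 are the extremes of 5649 ratios, and their ratios without 1 nucleus were not taken. Mrc1 went the other way, at 0.71 (0.62 to 0.82). Among the members, Slc7a2 was 2.99 times higher (1.51 to 5.91) and Arg2 7.09 times higher (1.98 to 31.5), while the ratios of Odc1, 0.95, and Ass1, 1.05, had intervals that held 1. Nos2 had 2 UMIs against 1, a ratio of 6.30 whose interval (0.328 to 372) also held 1. The Arg2 ratio compared 9 UMIs with 4, and 5 of the 9 were in 1 nucleus, without which it was 3.23 (0.601 to 17.3). For Slc7a2, 9 of 19 UMIs were in 1 nucleus, without which the ratio was 1.66 (0.692 to 3.70), so neither difference held without 1 nucleus, a check added after seeing the data. As both groups were cut from the same nuclei by Arg1 itself, these are descriptions, and they mix the clusters above.

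Across the 12 MTI populations, the genes whose log2(CPM + 10) followed that of Arg1 most closely, among 6866 genes with at least 100 UMIs, were Tnfrsf21 and Dennd4b (Pearson's r = 0.93 each), F13a1 (0.90), Fcgr1 (0.88), E230029C05Rik (0.87), Tmem104, Etv1 and Ctsc (0.86 each). F13a1, the coagulation factor XIII subunit of monocytes and macrophages, reached 4674 CPM in monocyte-like and 2201 CPM in macrophage-like nuclei. Fcgr1, a high-affinity antibody receptor, is itself one of the 12 macrophage markers. All points came from 1 library and differed in depth.

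Arg2 was highest in another population than Arg1. Of its 70 UMIs, 33 were in the 85 neutrophil-like nuclei, at 467 CPM (322 to 656), which was 53.9 times the level of all other kept nuclei (32.7 to 88.6). In that population 15.4% of genes were at least 2-fold higher and 51.5% at least 2-fold lower. The signal was spread over 23 nuclei with at most 4 UMIs each. After thinning to 500 UMIs, 22.4% of neutrophil-like nuclei (14.0 to 32.7) and 1.13% of macrophage-like nuclei (0.234 to 3.27) had an Arg2 UMI. Unthinned, these were 27.1% at a median of 757 UMIs and 3.40% at a median of 4043 UMIs. The same neutrophil-like nuclei held 1 Arg1 UMI. The Elf5-led unnamed nuclei stood at 72.6 CPM (37.5 to 127), and the macrophage-like nuclei at 11.8 CPM (6.47 to 19.8). Of the 52 nuclei with Arg2, 9 (17.3%) also had Arg1, which was found in 15.9% of all kept nuclei.

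Slc7a2 was mainly a skeletal lineage gene in this library. The 179 skeletal lineage-like nuclei held 248 of 405 Slc7a2 UMIs, at 240 CPM (211 to 272) and 5.06 times the level of all others; 15.3% of genes were at least 2-fold higher there and 22.7% at least 2-fold lower. It was found in 71 of these nuclei, with at most 27 UMIs in 1. The cartilage-type cluster led by Matn3, Col9a1 and Col11a1 had 253 CPM (221 to 288) and the cluster led by Pgr, Pi15 and Lbp 156 CPM (96.5 to 238), a ratio of 1.62 (1.04 to 2.67). The lower bound was close to 1. Of the 227 UMIs of the Matn3-led cluster, 27 were in 1 nucleus, without which its level was 228 CPM. The ratio without that nucleus was not taken. Monocyte-like nuclei came second, at 137 CPM (95.1 to 190), ahead of myogenic-like nuclei at 65.8 CPM (48.2 to 87.7). The Pax7-containing unnamed cluster, at 92.5 CPM (54.8 to 146), overlapped both. Macrophage-like nuclei had 33.8 CPM (24.1 to 46.0), or 0.29 times the level of all others. Endothelial-like and osteoclast-like nuclei had no Slc7a2 UMI, which allows up to 16.6 and 14.6 CPM. Arg1 and Slc7a2 were seen together in 29 nuclei, 19.6% of the 148 with Slc7a2 and 16.2% of the 179 with Arg1.

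Nos2 was scarce at day 5 post-MTI. It had 33 UMIs in 13 of 1127 kept nuclei, and macrophage-like nuclei held 3 of them, at 2.53 CPM (0.523 to 7.41). The skeletal lineage-like nuclei held 21, of which 18 were in 1 nucleus, so that their level of 20.4 CPM became 2.94 CPM without it. Monocyte-like nuclei held 2 UMIs, both in 1 nucleus. Of the 13 nuclei with Nos2, 1 (7.69%) also had Arg1, against 15.9% of all kept nuclei. A UMI stands for 1 captured molecule, so levels of different genes were set side by side as CPM and also per length. How capture depends on gene length was not tested. As CPM, macrophage-like nuclei had 579.5 for Arg1 and 2.53 for Nos2. In macrophage-like nuclei Arg1 had 260 CPM per kilobase of exon and Nos2 0.574, and per kilobase of the whole gene, introns included, the values were 47.3 and 0.0642. On each of these scales Arg1 was first and Nos2 last of the 6, with Ass1 next to last.

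Odc1 had 82 UMIs. Its level was highest in myogenic-like nuclei, at 37.2 CPM (24.3 to 54.5), 2.42 times that of all others (1.46 to 3.91), where 11.6% of genes were at least 2-fold higher and 38.7% at least 2-fold lower. Skeletal lineage-like nuclei had 22.3 CPM (14.1 to 33.4) an interval that overlapped the myogenic-like one, and macrophage-like nuclei had 12.7 CPM (7.09 to 20.9). Monocyte-like nuclei, highest for Arg1, had 2 Odc1 UMIs, at 7.80 CPM (0.945 to 28.2). Ass1 had 24 UMIs in 22 nuclei, of which 8 were in macrophage-like nuclei, at 6.76 CPM (2.92 to 13.3); the intervals of all populations overlapped.

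Around these members, 46 genes of arginine uptake, arginine and polyamine metabolism were listed, and 36 had at least 20 UMIs in the kept MTI nuclei. In macrophage-like nuclei 5 of the 36 were at least 2-fold higher and 14 at least 2-fold lower than in all other nuclei, against 10.5% and 29.5% of all genes. Their median ratio was 0.69, against 0.86 over all genes. The higher ones were the transporter subunit Slc7a7 at 4.97 (4.19 to 5.91), the polyamine oxidase Paox at 4.49, the polyamine acetyltransferase Sat1 at 3.53 (3.00 to 4.15), Arg1, and Slc3a2, the heavy chain that partners Slc7a7, at 2.23. Pycr1 had no UMI in macrophage-like nuclei, a ratio of 0 (0 to 0.51). After it, lower by the widest margins were Ddah1, which clears inhibitors of nitric oxide synthases, at 0.02, neuronal Nos1 at 0.06 and endothelial Nos3 at 0.07. Nos2 stood at 0.27 (0.052 to 0.857), but 18 of the 30 UMIs it was compared with were in 1 skeletal lineage-like nucleus, and without that nucleus the ratio was 0.66 (0.120 to 2.46). The count of lower genes therefore includes 1 that rests on 1 nucleus. Without that nucleus Nos2 had 15 kept UMIs and would not be among the 36. The other nuclei also include the skeletal lineage-like ones, which weigh on several of the lower ratios. They held 75 of the 97 Azin2 UMIs outside macrophage-like nuclei, 179 of 227 for Ddah1, 248 of 365 for Slc7a2 and 16 of 21 for Pycr1. Ratios without the skeletal lineage-like population were not taken. Of the polyamine breakdown genes, 2 of 3 were higher. Of these, Paox had 51 kept UMIs, 32 in macrophage-like nuclei and 19 in all others. Paox thus reached the limit of 20 UMIs only through the macrophage-like nuclei. The 4 measured genes of ornithine and proline metabolism were all at least 2-fold lower. They were Oat at 0.30, Aldh18a1 at 0.26, Prodh at 0.48 and Pycr1 with 0 of its 21 UMIs, though the interval of Prodh held 1. Oat, Aldh18a1 and Pycr1 were each at least 2-fold higher in skeletal lineage-like nuclei, which are part of the nuclei compared with here. These lower ratios are therefore not separate from that difference. Of all 36 genes, the interval lay wholly above 1 for 7 and wholly below 1 for 12.

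**Figure D3:**
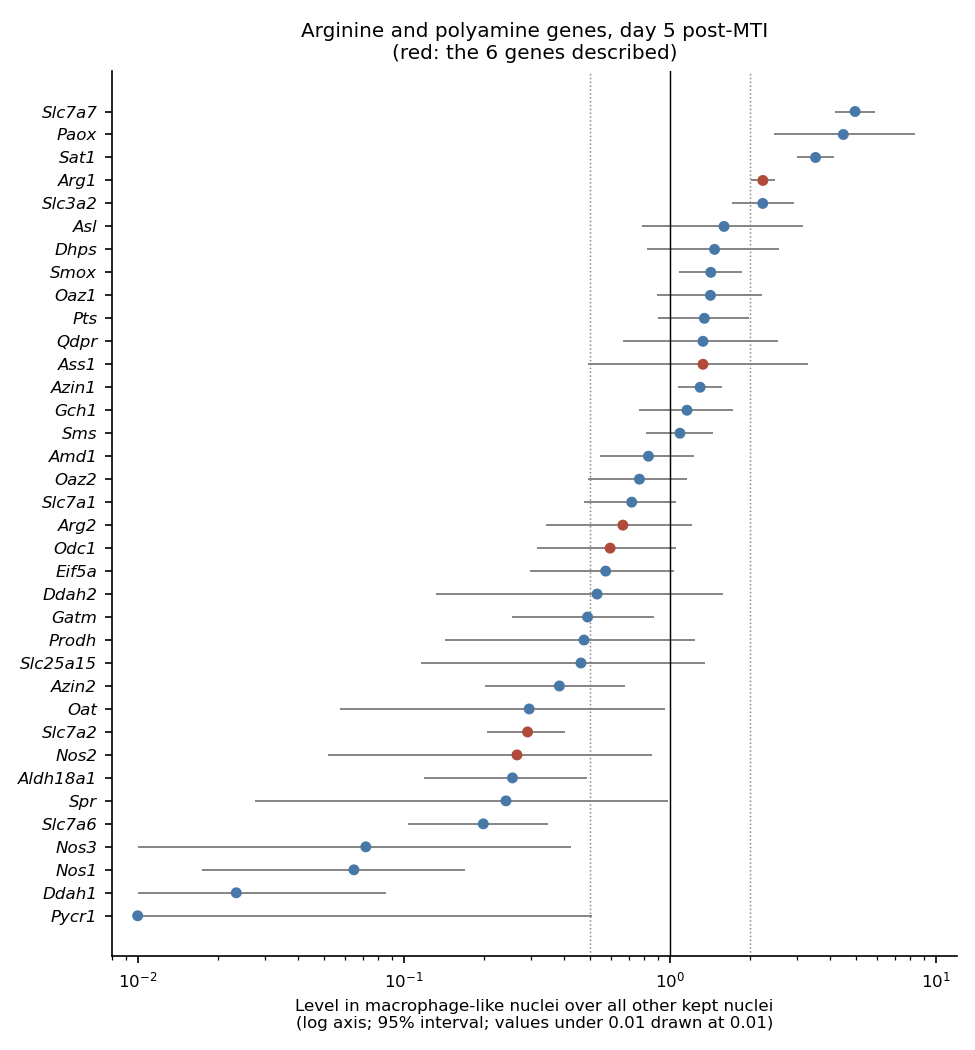
Ratio of the level in macrophage-like nuclei to that in all other kept nuclei (horizontal, log axis) for the 36 arginine and polyamine genes with at least 20 UMIs at day 5 post-MTI, with exact 95% intervals; red points are the 6 members and dotted lines mark 2-fold. Slc7a7 lies highest at 4.97, Arg1 at 2.24, and Slc7a2 and Nos2 lie left of the lower line at 0.29 and 0.27, the latter only with the 1 skeletal lineage-like nucleus that holds 18 Nos2 UMIs.

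Among listed regulators of Arg1 or Nos2, those at least 2-fold higher in macrophage-like nuclei included Pparg at 6.81 (5.24 to 8.91), the interleukin 4 receptor chain Il4ra at 2.58, Nfe2l2 at 2.07 and Stat6 at 2.01. Epas1 was lower, at 0.38. In monocyte-like nuclei, 6 of the 36 arginine and polyamine genes were at least 2-fold higher and 12 lower, against 8.16% and 38.4% of all genes. These calls use the ratio alone, and the interval lay wholly above 1 for 6 of the 36 and wholly below 1 for 3. Among the 6 called higher, Spr with 4 UMIs and Asl with 5 had intervals that held 1. In the same nuclei Slc7a1, another arginine transporter, stood at 3.23 (2.05 to 4.92). Gch1, which starts the synthesis of the nitric oxide synthase cofactor, stood at 4.10 (2.53 to 6.42). The regulators Klf4, at 5.55 (2.87 to 10.2), and Cebpb, at 4.03 (2.80 to 5.68), were higher in monocyte-like nuclei, whereas Pparg stood at 0.34 (0.12 to 0.75) there.

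Skeletal lineage-like nuclei showed 9 of the 36 genes at least 2-fold higher and 15 lower, against 15.3% and 22.7% of all genes. The 9 include Nos2, at 5.61 (2.63 to 12.5), which was 0.81 (0.147 to 3.00) without the nucleus named above. Without that nucleus Nos2 had 15 kept UMIs, fewer than the 20 asked of the 36 genes. Beside Slc7a2, the higher ones included Pycr1 at 10.3 (3.59 to 35.8), Aldh18a1 at 5.10 (3.45 to 7.61) and Oat at 3.20 (1.46 to 7.03), enzymes of proline synthesis. Pycr1 had 21 kept UMIs, 16 in skeletal lineage-like nuclei and 5 in all others. It thus reached the limit of 20 UMIs only through the population in which it was called higher. The same held for Ddah2, also among the 9 at 3.20 (1.32 to 7.80), with 12 of its 24 kept UMIs in skeletal lineage-like nuclei. Oat, with 30 kept UMIs and the same ratio as Ddah2, also fell below 20 UMIs without these nuclei. Ddah1, at 11.5 (8.34 to 16.0), was higher there too. Of the 36 genes, the interval lay wholly above 1 for 10 and wholly below 1 for 13 in skeletal lineage-like nuclei. In myogenic-like nuclei Nos1, the muscle synthase, was 17.8 times higher (12.3 to 26.3) and Gatm, which starts creatine synthesis from arginine, 4.76 times higher (3.07 to 7.36).

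At day 1 post-fracture the members were read against barcodes with under 200 genes, which stand for RNA free in the suspension. Arg1 had 1690 UMIs there, at 247 CPM, and its level fell as barcodes held more genes, to 172 CPM (136 to 215) in the 380 barcodes with at least 500 genes. The 472 immune-like nuclei, in which no subset could be named and which also carried raised endothelial markers, held 32 Arg1 UMIs, at 194 CPM. That is 0.79 times the free RNA level (0.54 to 1.11), where 14.4% of 18065 genes were at least 2-fold higher and 20.4% lower. An Arg1 UMI was found in 5.72% of immune-like nuclei (median 329 UMIs) and in 5.34% of myogenic-like nuclei (median 441 UMIs). Per UMI, the immune-like level was 1.89 times the myogenic-like level of 103 CPM (1.16 to 3.05). Thinned to 500 UMIs, only 22 immune-like nuclei remained, of which 3 had an Arg1 UMI. The myogenic-like level was 0.42 times the free RNA (0.30 to 0.56).

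The day 1 value depended on the mitochondrial limit. Among barcodes with 200 to 5000 genes, Arg1 stood at 137 CPM under 0.5% mitochondrial UMIs, the study's limit, then at 191 CPM from 0.5 to 1%, 243 CPM from 1 to 2% and 385 CPM (315 to 465) at 2% or more. With the limit of 5% used for the other library, 204 nuclei could be named macrophage-like, and their Arg1 level was 518 CPM (376 to 695), 2.10 times the free RNA (1.52 to 2.83). The immune-like ratio was then 1.61 (1.26 to 2.03). Over the same bins the macrophage-list level rose too, from 455 to 688, 829 and 1270 CPM. Mitochondrial share, Arg1 and the macrophage list thus moved together here. The parts of cytoplasmic RNA and of macrophage content in this were not tested.

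**Figure D4:**
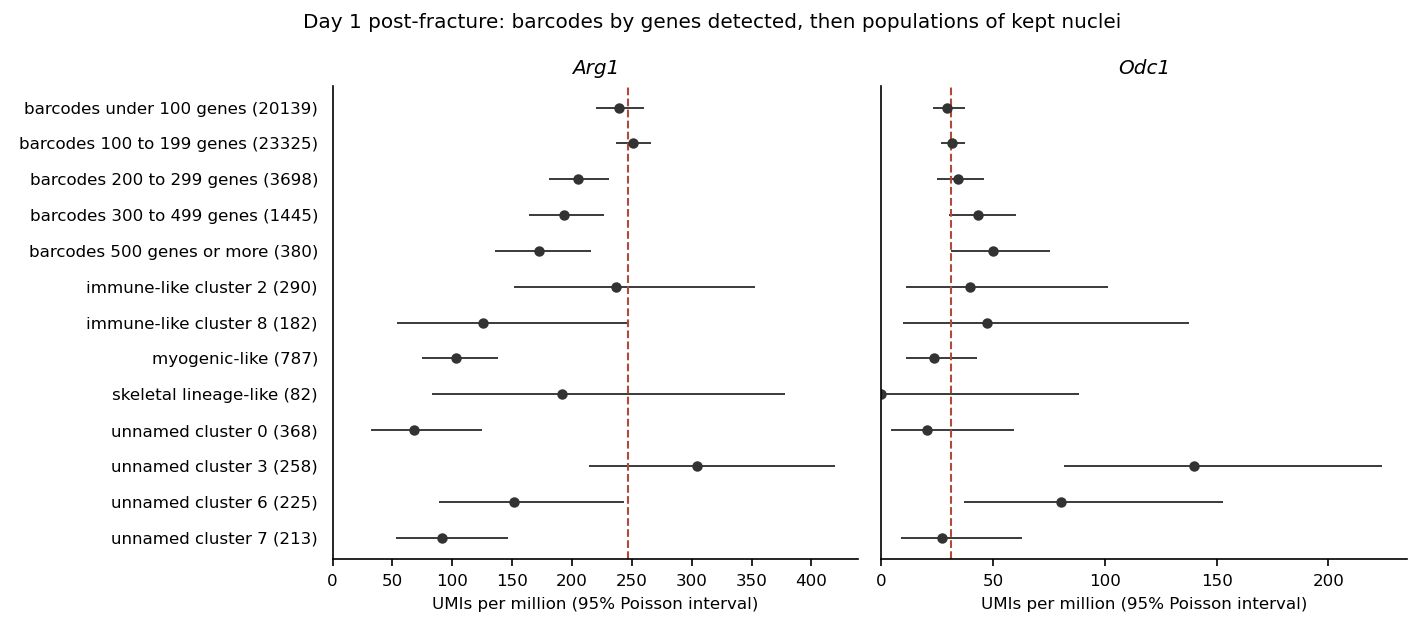
Arg1 (left) and Odc1 (right) at day 1 post-fracture, as UMIs per 1000000 with exact 95% Poisson intervals, in barcodes grouped by genes detected (upper rows) and in populations of kept nuclei (lower rows); the dashed line is the level in barcodes under 200 genes. Immune-like clusters lie at or below the Arg1 line, and unnamed cluster 3 lies at 140 CPM of Odc1, right of the line at 31.0 CPM.

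Odc1 stood above free RNA in a pair of unnamed day 1 clusters. In the 258 nuclei of an unnamed cluster led by Atf3, Nes, Sox4, Egr1 and Ccn1, several of them immediate early genes, Odc1 had 17 UMIs in 10 nuclei, at 140 CPM (81.5 to 224), against 31.0 CPM in free RNA, a ratio of 4.52 (2.58 to 7.41). Of the 17 UMIs, 7 were in 1 nucleus, without which the ratio was 2.67 (1.26 to 5.01). Arg1 in the Atf3-led cluster was 304 CPM (214 to 420), 1.23 times the free RNA (0.87 to 1.71). In an unnamed cluster led by Rab3b and Ifngr2, Odc1 had 9 UMIs, 2.60 times the free RNA (1.17 to 5.03). Arg1 there was 152 CPM, 0.62 times the free RNA (0.36 to 0.99). In immune-like nuclei, Nos2 had 7 UMIs at 42.4 CPM, 2.20 times the free RNA (0.868 to 4.66), and Arg2 had 6 at 2.01 times (0.723 to 4.50), neither of which could be told from the background. Ass1 had 4 UMIs in 82 skeletal lineage-like nuclei, 9.96 times the free RNA (2.63 to 26.7). Slc7a2 had 53 UMIs in the kept day 1 nuclei, and stood at 48.5 CPM in free RNA. Myogenic-like nuclei held 28 of the 53 (52.8%, against 35.6% of all UMIs). Skeletal lineage-like nuclei held 1 (1.89%, against 3.47% of all UMIs).

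**Figure D5:**
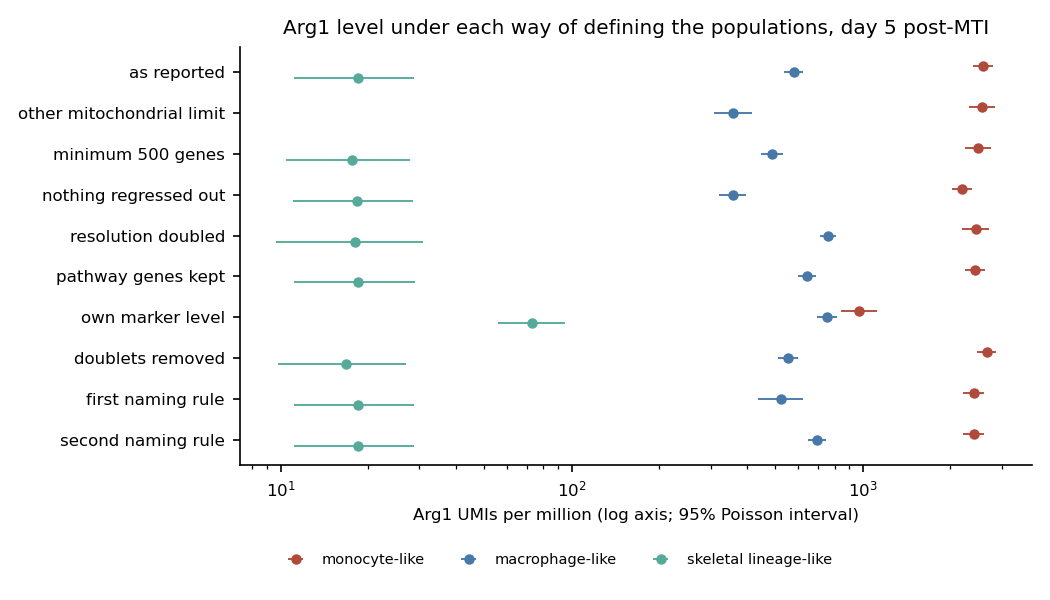
Arg1 level (log axis, UMIs per 1000000, exact 95% Poisson intervals) in monocyte-like, macrophage-like and skeletal lineage-like nuclei at day 5 post-MTI under each way of defining the populations. Monocyte-like points lie between 970 and 2664 CPM and macrophage-like points between 358 and 761 CPM, and in every setting the monocyte-like level is above the macrophage-like one.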

How the data were processed

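Single nuclei from day 1 post-fracture and day 5 post-MTI tissue were profiled by the authors with the 10x Genomics 3′ v3.1 chemistry. The counts that the authors deposited are UMIs for each gene in each barcode, not normalized, made with Cell Ranger 7.0.1 (per the file headers) on mm10 with intronic and exonic reads, 1 matrix per library. The submitters' text names a human reference in one place, but the gene identifiers are mouse.

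Nuclei with 200 to 5000 genes were kept, with mitochondrial UMIs under 0.5% and ribosomal UMIs under 2.5% at day 1, and under 5% and 2% post-MTI. Clustering used Seurat 5.3.0 in R 4.3.3, with 2000 variable genes less the listed pathway genes. It took 20 components at resolution 1.7 at day 1 and 30 components at resolution 1 post-MTI, with immune nuclei clustered again. Mitochondrial and ribosomal content, and cell cycle at day 1, were regressed out. A cluster was named where at least 3 markers had at least 3 UMIs and a fold of 1.5 over other kept nuclei, with a marker among its 50 leading genes or 2 of 3 markers raised. This was the last of 3 naming rules: the later 2 were written after clusters, and UMI counts of the 6 genes in them, had been seen, and the earlier 2 were run as alternatives. Doublets were marked with scrublet in scanpy 1.11.5 and kept. It marked 0.0185% of 5414 day 1 barcodes, which means that it did not work there, and 0.266% of 1127 MTI nuclei.

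Levels are UMIs per 1000000 with exact Poisson intervals, shares have Clopper-Pearson intervals and ratios exact conditional binomial intervals (scipy 1.17.1). The ratio intervals were run on simulated Poisson counts, the model that they assume. That simulation could not test the effect of UMIs gathered in few nuclei. All intervals cover counting error only. A count of 0 is given the limit of 3 counts. Besides the members, named genes are pathway genes at least 2-fold from other nuclei in macrophage-like nuclei, the 8 genes most like Arg1, the 10 with the largest ratio between nuclei with and without Arg1, and the leading genes of clusters; pathway genes named in monocyte-like, skeletal lineage-like and myogenic-like nuclei were chosen after their values were seen. Members, lists and markers were chosen with earlier results of these data known. No genome was used here, and some items are not reported here.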

Additional observations from a re-analysis of the deposited data

How the results depend on the processing

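The Arg1 level of macrophage-like nuclei and its ratio to all other kept nuclei were 359.5 CPM and 1.43 with a mitochondrial limit of 0.5%, 489 CPM and 1.58 with at least 500 genes, 358 CPM and 1.04 with nothing regressed out, 761 CPM and 4.46 with doubled resolution, 646 CPM and 2.81 with pathway genes kept, 755 CPM and 2.94 with each nucleus assigned by its own marker level, 522 CPM and 1.55 under the first naming rule, and 695 CPM and 3.03 under the second. The thinned share of macrophage-like nuclei with Arg1 was 20.0% by own marker level, 19.1% thinned to 1000 UMIs and 29.4% unthinned. The share of Arg1 UMIs in the top 10% was 82.1% with the 0.5% limit, 74.2% with 500 genes, 85.2% with nothing regressed out, 71.2% with doubled resolution, 73.6% by own marker level and 83.3% under the second naming rule. The ratio of monocyte-like to macrophage-like Arg1, an added comparison, was 7.16, 5.11, 6.13, 3.21, 3.77 and 1.29 for the 0.5% limit, 500 genes, nothing regressed out, doubled resolution, pathway genes kept and own marker level, and 3.46 under the second naming rule. The ratio of immune-like to all other nuclei was 27.9, 20.9, 25.0, 19.8 and 3.03 for the 0.5% limit, 500 genes, nothing regressed out, pathway genes kept and own marker level, and 20.0 under both earlier naming rules. At day 1 the immune-like ratio to free RNA, 0.79 (0.54 to 1.11), lay above 1 under 2 alternatives, at 1.61 (1.26 to 2.03) with the 5% limit and 1.46 (0.926 to 2.21) with doubled resolution. The causes of these shifts were not tested. No immune-like population could be named at day 1 with 500 genes, with pathway genes kept or under the first naming rule, and no skeletal lineage-like one post-MTI with the 0.5% limit, so these gave no value. The naming rules, the monocyte-like and immune-like ratios and the ratios without 1 nucleus were added after seeing the data. No paired analysis was possible because each condition had 1 library. A median of 409 UMIs per nucleus limits the day 1 values, and few UMIs limit Nos2 and Ass1.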

Other observations

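Neutrophil-like nuclei at day 5 post-MTI held, beside Arg2, the highest ratio of Smox, spermine oxidase. Smox had 31 UMIs there, at 439 CPM, 8.92 times the level of all other kept nuclei (95% interval 5.91 to 13.0). It was 3.46 times higher in monocyte-like nuclei (2.43 to 4.83) and 0.32 times in myogenic-like nuclei (0.17 to 0.55). Smox was chosen here after its values were seen.

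Among the 21 MTI barcodes removed for holding over 5000 genes, Nos2 had 98 UMIs, more than the 33 in all 1127 kept nuclei. Of these, 91 were in 1 barcode with 35994 UMIs, which also held 102 UMIs of the collagen gene Col1a1 and 2 of the macrophage list. The same 21 barcodes held 24 Arg1 UMIs, of which 12 were in 1 barcode with 116 macrophage-list UMIs and 352 Col1a1 UMIs. A further 261 MTI barcodes removed for mitochondrial UMIs held 283 Arg1 UMIs, at 311 CPM (276 to 350), and 11 Nos2 UMIs.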
